A study of Mus musculus with 2 samples.

Results

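The genes described here encode 10 components of the Hippo-YAP pathway: the coactivators *Yap1* and *Wwtr1*, the DNA-binding partners *Tead1* and *Tead3*, the TEAD repressor *Vgll4*, the kinases *Lats1* and *Lats2* with the adaptor *Sav1*, and the upstream regulators *Nf2* and *Amot*. They were chosen by name, with no measured value in the rule, but with earlier results of these data known. The paper on these organoids had reported that NRG1 reduced VGLL4 and that YAP-induced gene sets were enriched. All 10 genes were found among the 31053 genes of the count table. All 10 passed the filter on low counts (a total of 5 or more and, after scaling, a mean of 1 or more per library), as did 12130 genes in total. The RNA came from intestinal organoids, three-dimensional epithelial cultures grown in Matrigel from crypts of wild-type C57BL/6J mice, with 1 mouse in each of 2 experiments. The compared groups were NRG1 organoids, EREG organoids and EGF organoids. Each ligand, a member of the EGF family, was given at 100 ng/ml for 24 h, and each group had 3 libraries per experiment and 6 in all, which makes 18 libraries. All groups shared what came before: 3 days in ENR medium (50 ng/ml EGF, Noggin and R-spondin), with the compound Y-27632 in the first days only, and then 24 h without EGF. No library was made from organoids without a ligand, so that EGF organoids served as the control. Whether the libraries of a group came from separate cultures is not stated, and p-values therefore describe only how these libraries scatter, which may be technical. Mouse and experiment cannot be told apart.

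In the Hippo pathway, the MST kinases and their adaptor SAV1 activate the LATS kinases, and these phosphorylate YAP and TAZ (the product of *Wwtr1*), which are then held in the cytoplasm or degraded. Without that phosphorylation, YAP and TAZ enter the nucleus and activate genes together with TEAD factors, and VGLL4 competes with them for TEAD. In the intestinal epithelium YAP is known for its part in regeneration after injury. Much of this control acts on protein phosphorylation and location, which RNA counts do not measure.

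Library totals lay between 1311420 and 1891243 UMIs (unique molecular identifiers, which remove PCR copies from a count), and 12141 to 13024 genes were detected per library. Each molecule was counted once at its 3′ end, so levels do not scale with transcript length. The 6 epithelial markers were present in every library, with summed normalized counts of at least 6277, while the 7 fibroblast markers summed to at most 14.1, the 4 smooth muscle markers to at most 19.5, the 5 immune markers to at most 14.2, and the 3 endothelial and 3 glial markers to at most 4.36 and 4.39. Of these, 1 of 7 fibroblast, 1 of 4 smooth muscle, 2 of 5 immune and 2 of 3 endothelial markers were at 0 in all libraries.

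The promoters of the 10 genes were searched for the core of the TEAD recognition motif, CATTCC, on both strands (GGAATG is the same motif read on the other strand), in RefSeq windows of 300 bases, 250 before and 50 after the start site (GRCm38.p6). Windows were available for 9 of the 10 genes, not for *Tead1*. The motif was present in at least 1 window of 6 genes, *Yap1*, *Wwtr1*, *Tead3*, *Vgll4*, *Lats2* and *Sav1*, and in none of the windows of *Lats1*, *Nf2* and *Amot*. Among all genes with a window, 16.6% held it. Genes differ in their number of windows: by window, 8 of the 14 windows of these genes held it, against 14.7% of all windows. The stretches around the motif are shown because they set the pathway's own genes beside the motif of its DNA-binding factors, with the motif in capitals, read 5′ to 3′ on the gene's strand (the minus strand in each case):

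*Vgll4*, chr6:114969268-114969297, motif at −82 from a start site: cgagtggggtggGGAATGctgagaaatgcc
*Yap1*, chr9:8004720-8004749, motif at −141 from a start site: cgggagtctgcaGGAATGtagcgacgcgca
*Wwtr1*, chr3:57576029-57576058, motif at −136 from a start site: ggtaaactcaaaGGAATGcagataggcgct
*Tead3*, chr17:28350970-28350999, motif at −182 from a start site: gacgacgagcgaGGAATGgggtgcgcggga
*Sav1*, chr12:69987091-69987120, motif at −106 from a start site: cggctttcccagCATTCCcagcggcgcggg

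*Tead3* had 3 further matches, the last of them at 3 from a start site. The match of *Lats2* lay at 5 from a start site inside the span of the gene. Both of these lay after the start site, within the transcribed part. A match is a description of the sequence and not a site of binding.

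The 10 genes spanned a wide range of levels. *Vgll4* was highest, with a mean of 249 normalized UMI counts per library (± 45.7 SD, n = 18), and 4509 UMIs in all. *Amot* (86.9 ± 27.5) and *Yap1* (81.0 ± 13.9) came next and did not differ beyond their spread, followed by *Lats1* (45.5 ± 7.90), *Nf2* (37.5 ± 8.74) and *Tead1* (25.1 ± 9.02). *Tead3* (10.0 ± 4.50), *Wwtr1* (9.95 ± 5.72), *Sav1* (8.72 ± 3.38) and *Lats2* (4.09 ± 2.14) were low and overlapped each other. *Yap1* RNA was thus far more abundant than that of its paralog *Wwtr1*. *Lats2* had only 1 to 9 UMIs per library, and a change in it was not detectable at this depth unless large.

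**Figure D1:**
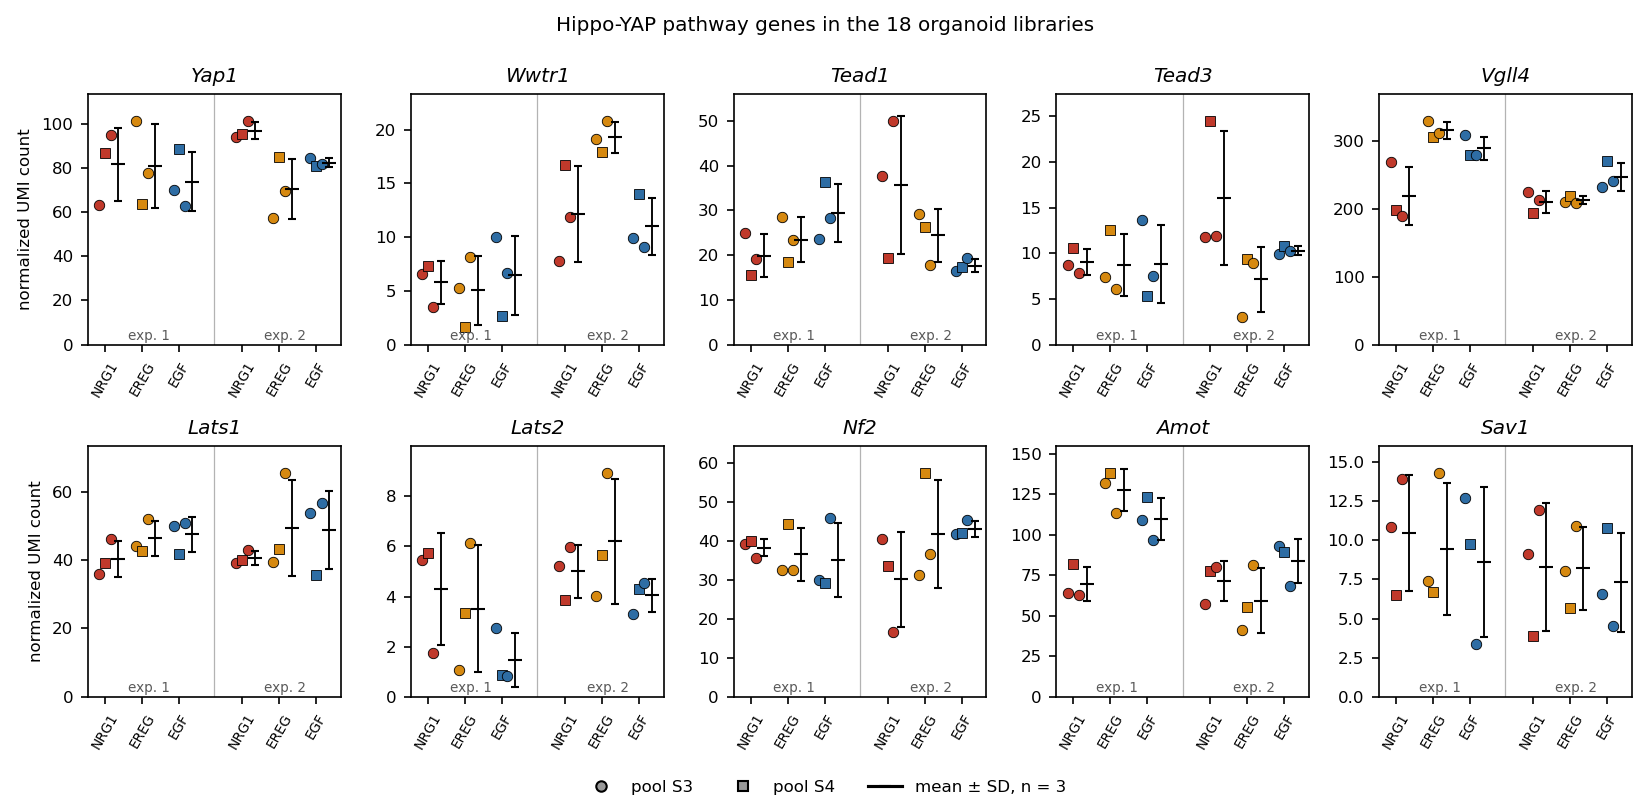
Normalized UMI counts of the 10 genes (y axes, each starting at 0) in the 18 libraries, by ligand and experiment; circles are libraries of sequencing pool S3, squares those of pool S4, and the black bars beside them the mean ± SD of 3 libraries. *Vgll4* in NRG1 organoids lay below EGF organoids in both experiments, from 190.0 to 269 against 279 to 309 in experiment 1 and from 193 to 224 against 232 to 271 in experiment 2.

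NRG1 was compared with EGF to see whether the pathway's own genes changed their RNA level with this ligand. The RNA of the repressor *Vgll4* fell, while the coactivators, the TEAD factors, the kinases with their adaptor, *Nf2* and *Amot* gave no call. By edgeR's quasi-likelihood test (adjusted p under 0.1 over all genes), 1 of the 10 genes was called, against a background of 11.5% of the 12130 genes tested. This share of members is near the background, so that the genes do not stand out as a set. Their median log2 fold change was 0.08, and that of all genes was −0.01.

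*Vgll4* (ENSMUSG00000030315, GRCm38 chr6:114860628-114969994, minus strand) encodes a TEAD-binding repressor that displaces YAP. In experiment 1 it had 269, 198 and 190.0 normalized counts in NRG1 organoids, 329.7, 305 and 312 in EREG organoids, and 309, 279 and 280.1 in EGF organoids. In experiment 2 it had 224, 193 and 213 in NRG1 organoids, 211, 219 and 208 in EREG organoids, and 232, 271 and 240.5 in EGF organoids. NRG1 libraries thus lay below all EGF libraries in both experiments, while EREG libraries lay with or above EGF libraries in experiment 1 and at the level of NRG1 libraries in experiment 2. Over 6 libraries per ligand, the mean was 215 ± 29.5 in NRG1 organoids, 264 ± 57.1 in EREG organoids and 269 ± 28.5 in EGF organoids (SD).

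*Vgll4* fell by 0.33 on the log2 scale in NRG1 against EGF organoids (SE 0.09, 95% interval −0.52 to −0.14, edgeR adjusted p = 0.0170). Permuting the ligand labels inside each experiment gave an exact two-sided p = 0.005, the smallest that its 400 relabelings allow. Groups that do not overlap in both experiments, in the same direction, were seen in 5.05% of the genes tested. It also fell in NRG1 against EREG organoids, by 0.29 (SE 0.09, edgeR adjusted p = 0.0384, exact permutation p = 0.045), where 1 of 10 genes was called against a background of 11.3%. The NRG1 against EGF call was kept without any 1 library (adjusted p 0.0095 to 0.097), but was lost when the libraries of 1 sequencing pool were used alone, an alternative added after the values were seen (pool S3, −0.24, adjusted p = 0.37; pool S4, −0.49, adjusted p = 0.12), in experiment 2 alone (−0.24, adjusted p = 0.26) and when counts were summed per experiment and ligand (−0.32, adjusted p = 0.18). The NRG1 against EREG call was lost without replicate 2 or 3 of NRG1 or of EREG in experiment 1 (adjusted p 0.12 to 0.17), in pool S3 (−0.23, 0.42) or pool S4 alone (−0.41, 0.25), in experiment 2 alone (−0.03, 0.93) and with summed counts (−0.28, 0.30).

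Markers of other cell states were also called. In NRG1 against EGF organoids, 5 of 5 Paneth cell markers, 4 of 5 stem cell markers, 3 of 5 goblet cell markers and 2 of 4 enteroendocrine markers fell, while 2 of 6 enterocyte markers, 2 of 6 general epithelial markers (*Krt8* and *Vil1*) and 1 of 3 proliferation markers (*Ccnb1*) rose. Over all 12130 genes tested, 656 fell and 735 rose. Several of these calls were not made within each experiment. Paneth markers were called in both experiments, except *Mmp7* in experiment 1. Of the stem cell markers, only *Olfm4* was called in experiment 2, and no enteroendocrine marker was. In experiment 1 no goblet marker was called, nor was either enterocyte riser (*Alpi* and *Fabp1*). *Vil1* was called in neither experiment (edgeR adjusted p 0.23 in experiment 1 and 0.17 in experiment 2), nor was the goblet marker *Fcgbp* (0.64 and 0.147). Summed normalized counts of the Paneth markers were 32572 to 43017 in NRG1, 42934 to 51733 in EREG and 49586 to 55143 in EGF organoids of experiment 1, and 34507 to 37537, 37252 to 46578 and 49154 to 57776 in those of experiment 2. Those of the stem cell markers were 2151 to 2375 in NRG1, 2690 to 3500 in EREG and 3252 to 3717 in EGF organoids of experiment 1, and 733 to 775, 984 to 1138 and 882 to 933 in experiment 2. None of these markers was at 0 in all libraries. Their part in the fall of *Vgll4* was not tested. In bulk RNA, fewer cells of a type and less RNA per cell cannot be told apart.

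The 5 genes whose pattern over the 18 libraries was most like that of *Vgll4*, after removal of experiment and replicate number, were *Chga* (Pearson's r = 0.87), *Tmed3* (0.86), *Siae* (0.86), *Cyp4v3* (0.86) and *Akap9* (0.85), out of 4664 genes that averaged 50 or more normalized counts. *Chga*, which encodes chromogranin A, is a marker of enteroendocrine cells. These libraries share ligands and pools, so the values are a description. The summed enteroendocrine markers were 791 to 1259 in NRG1, 1038 to 1445 in EREG and 1105 to 1194 in EGF organoids of experiment 1, and 1697 to 1932, 1764 to 1827 and 1959 to 1995 in experiment 2. *Chgb*, the marker with the highest counts in these sums, averaged 904 ± 281 in NRG1 and 910 ± 264 in EGF organoids (SD). In NRG1 against EGF organoids *Chga* (−0.48) and *Gip* (−0.39) fell, while *Chgb* (−0.01) and *Neurod1* (−0.32) were not called. The part of these markers in the pattern of *Vgll4* was not tested. Among the 45 pairs of the 10 genes, r was over 0.5 in size for 3 pairs: *Vgll4* with *Amot* (0.68), *Lats1* with *Amot* (0.50) and *Tead1* with *Nf2* (−0.53).

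**Figure D2:**
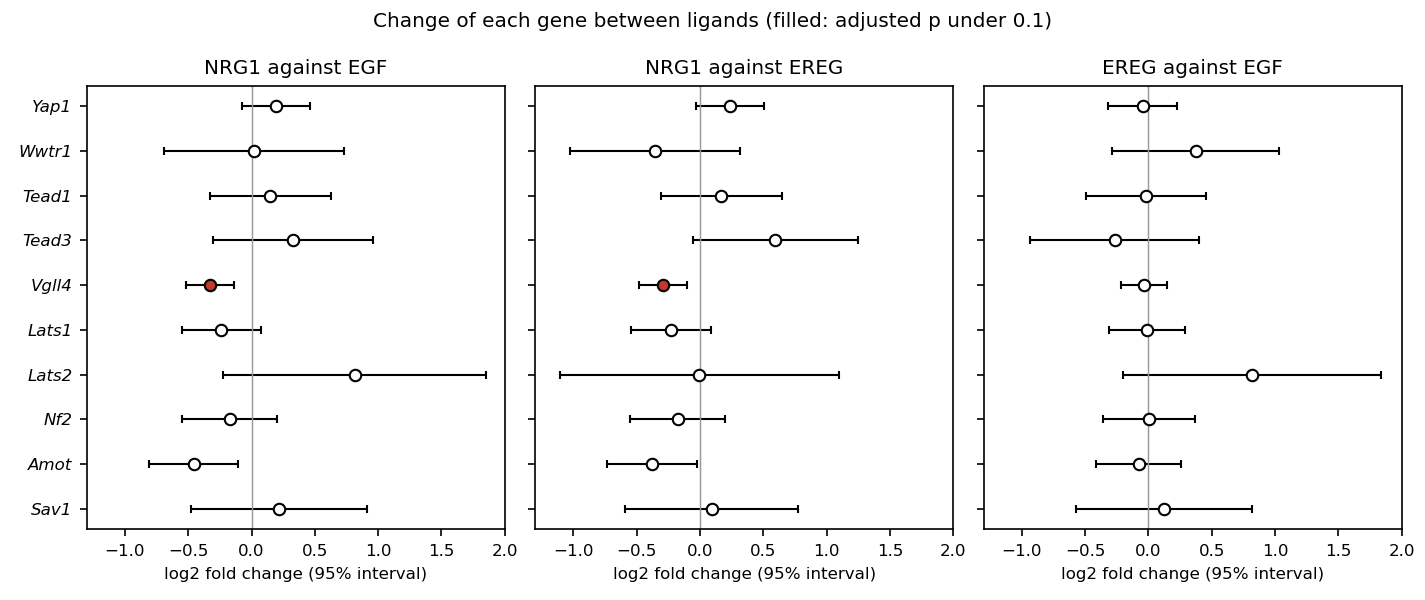
Log2 fold change of each of the 10 genes (x axes) with its 95% interval, for NRG1 against EGF, EREG against EGF and NRG1 against EREG, each over 6 libraries per ligand; filled points had an adjusted p under 0.1. Only *Vgll4* is filled, at −0.33 for NRG1 against EGF and −0.29 for NRG1 against EREG, and the interval of *Lats2* is the widest.

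*Amot* (ENSMUSG00000041688, chrX:145446425-145505181, minus strand) encodes angiomotin, a junction protein that binds YAP. In experiment 1 it had 64.2, 81.7 and 62.8 normalized counts in NRG1 organoids, 132, 138 and 113 in EREG organoids, and 109, 123 and 97.0 in EGF organoids. In experiment 2 it had 57.4, 77.3 and 79.8 in NRG1 organoids, 41.3, 55.6 and 81.3 in EREG organoids, and 93.3, 89.6 and 68.1 in EGF organoids. NRG1 libraries were below all others in experiment 1, whereas the 3 groups overlapped in experiment 2. Over both experiments the log2 fold change of NRG1 against EGF was −0.46 ± 0.17 (SE), which did not pass (edgeR adjusted p = 0.107, exact permutation p = 0.02). It passed under some other settings, such as without a filter on low counts (adjusted p = 0.0147) or with the NRG1 and EGF libraries alone (0.0149).

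The response was also tested within each experiment. For NRG1 against EGF, 2 of 10 genes were called in experiment 1, *Vgll4* and *Amot*, which both fell (background 7.99%), and 1 of 10 in experiment 2, *Tead1*, which rose (background 7.05%). *Vgll4* had a log2 fold change of −0.41 ± 0.12 in experiment 1 (edgeR adjusted p = 0.0143) and of −0.24 ± 0.12 in experiment 2 (0.33). *Amot* had −0.66 ± 0.17 in experiment 1 (0.00864) and −0.23 ± 0.19 in experiment 2 (0.62). For neither gene was the difference between the experiments called: it was −0.18 ± 0.17 for *Vgll4* (adjusted p = 0.81) and −0.43 ± 0.26 for *Amot* (0.62). In experiment 1, the *Vgll4* call was lost without NRG1 replicate 2 (0.16) or 3 (0.12).

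*Tead1* (ENSMUSG00000055320, chr7:112679318-112906807, plus strand), a DNA-binding partner of YAP, had fold changes of opposite sign in the 2 experiments. In experiment 1 it had 25.0, 15.5 and 19.2 normalized counts in NRG1 organoids, 28.4, 18.4 and 23.5 in EREG organoids, and 23.6, 36.4 and 28.4 in EGF organoids. In experiment 2 it had 37.8, 19.3 and 50.0 in NRG1 organoids, 29.2, 26.4 and 17.9 in EREG organoids, and 16.5, 17.3 and 19.3 in EGF organoids. The NRG1 libraries of experiment 2 were spread widely, and the lowest of them had 15 UMIs, no more than the EGF libraries with 15 to 17. The log2 fold change of NRG1 against EGF was −0.59 ± 0.29 in experiment 1 (edgeR adjusted p = 0.26) and 1.01 ± 0.31 in experiment 2 (0.0381).

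*Tead1* was the 1 gene of the 10 whose change in NRG1 against EGF organoids differed between experiments, by −1.60 ± 0.43 (SE, edgeR adjusted p = 0.0399, background 1.44%). The call of this difference was lost without replicate 2 of NRG1 in experiment 1 (−1.50, adjusted p = 0.14), replicate 2 of EGF in experiment 1 (−1.28, 0.27), replicate 1 of EGF in experiment 2 (−1.49, 0.12) or replicate 3 of NRG1 in experiment 2 (−1.24, 0.29), and in pool S3 alone (−1.55, 0.45). The rise in experiment 2 was likewise lost without replicate 1 of EGF (0.90, adjusted p = 0.20) or replicate 3 of NRG1 (0.65, 0.44). Over both experiments *Tead1* gave 0.15 ± 0.24 (adjusted p = 0.79).

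For NRG1 against EREG, 2 of 10 genes fell in experiment 1 (background 6.93%) and 0 of 10 were called in experiment 2 (background 11%), where 2 of 10 had an unadjusted p under 0.05 by edgeR and DESeq2 called 0 of 10, but a fit of the experiment 2 libraries alone called these 2. *Amot* fell by 0.88 on the log2 scale in experiment 1 (SE 0.17, edgeR adjusted p = 0.000197) and had 0.27 ± 0.20 in experiment 2 (0.49). *Vgll4* fell by 0.54 in experiment 1 (SE 0.12, adjusted p = 0.000745) and had −0.02 ± 0.12 in experiment 2 (0.96). The difference between experiments, a contrast added after the values were seen, was called for *Amot* (−1.15 ± 0.26, adjusted p = 0.00580) and *Vgll4* (−0.52 ± 0.17, adjusted p = 0.0922), or 2 of 10 genes against a background of 2.98%. That of *Amot* was kept under 24 of 25 alternatives and lost in pool S3 alone (adjusted p = 0.34), while that of *Vgll4* was lost under 19 of 25. In experiment 2 the unadjusted p under 0.05 belonged to *Yap1* (0.46 ± 0.19, adjusted p = 0.13) and *Tead3* (1.14 ± 0.46, adjusted p = 0.12). Fitted on the experiment 2 libraries alone, *Yap1* had 0.44 ± 0.18 (edgeR adjusted p = 0.093) and *Tead3* 1.13 ± 0.45 (0.097), both called.

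**Figure D3:**
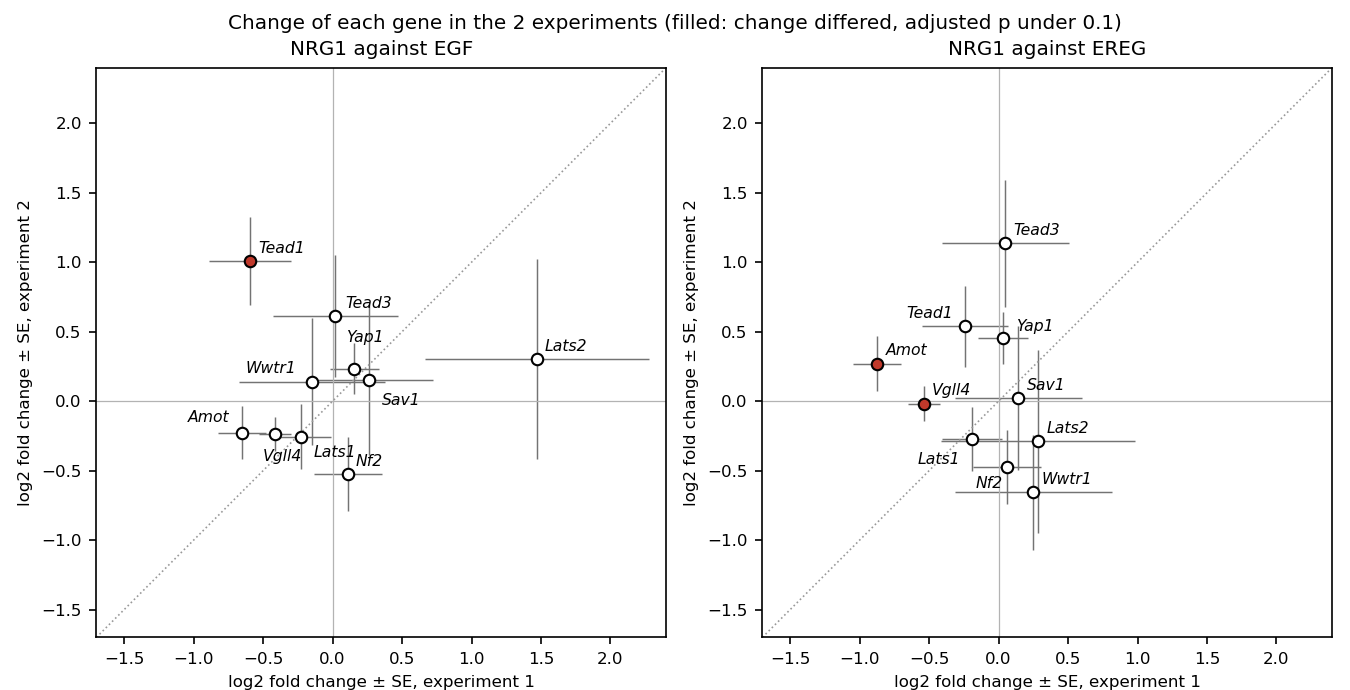
Log2 fold change ± SE of the 10 genes in experiment 1 (x axes) and experiment 2 (y axes), for NRG1 against EGF and NRG1 against EREG; filled points are genes whose change differed between the experiments at an adjusted p under 0.1. *Tead1* is filled for NRG1 against EGF (−0.59 in experiment 1, 1.01 in experiment 2), and *Amot* (−0.88 in experiment 1, 0.27 in experiment 2) and *Vgll4* (−0.54 in experiment 1, −0.02 in experiment 2) for NRG1 against EREG.

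The coactivator *Yap1* (ENSMUSG00000053110, chr9:7931999-8004596, minus strand) had 63.1, 86.6 and 95.0 normalized counts in NRG1 organoids of experiment 1, 101, 63.6 and 77.6 in EREG organoids and 70.0, 88.7 and 62.7 in EGF organoids. In experiment 2 it had 93.9, 95.4 and 101 in NRG1 organoids, 57.4, 84.8 and 69.4 in EREG organoids, and 84.5, 81.0 and 81.7 in EGF organoids. The ligands overlapped in experiment 1, and NRG1 libraries were above all others in experiment 2. The log2 fold change was 0.19 ± 0.13 in NRG1 against EGF organoids (95% interval −0.08 to 0.46, edgeR adjusted p = 0.45).

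*Wwtr1* (ENSMUSG00000027803, chr3:57455649-57575910, minus strand), which encodes the YAP paralog TAZ, had 6.53, 7.35 and 3.49 normalized counts in NRG1 organoids of experiment 1, 5.27, 1.67 and 8.17 in EREG organoids and 10.0, 2.66 and 6.69 in EGF organoids. In experiment 2 it had 7.82, 16.8 and 11.9 in NRG1 organoids, 19.1, 17.9 and 20.8 in EREG organoids and 9.88, 14.04 and 9.08 in EGF organoids. The EREG libraries of experiment 2 were above all others, with a log2 fold change of 0.80 ± 0.41 against EGF (edgeR adjusted p = 0.52). NRG1 against EGF gave 0.02 ± 0.36 over both experiments (adjusted p = 0.99).

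*Tead3* (ENSMUSG00000002249, chr17:28331671-28350817, minus strand), another DNA-binding partner of YAP, lay between 5.32 and 13.6 normalized counts in all libraries of experiment 1. In experiment 2 it had 11.7, 24.5 and 11.9 in NRG1 organoids, 3.02, 9.42 and 8.93 in EREG organoids and 9.88, 10.8 and 10.2 in EGF organoids. The NRG1 libraries of experiment 2 were above all others, 1 of them by a wide margin. Over both experiments NRG1 against EGF gave a log2 fold change of 0.33 ± 0.32 (edgeR adjusted p = 0.62) and NRG1 against EREG 0.60 ± 0.33 (0.30).

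Of the kinases that phosphorylate YAP, *Lats1* (ENSMUSG00000040021, chr10:7681214-7716460, plus strand) averaged 40.5 ± 3.55 normalized counts in NRG1, 47.8 ± 9.60 in EREG and 48.1 ± 7.95 in EGF organoids (SD, n = 6). These ranges overlapped, and the log2 fold change of NRG1 against EGF was −0.24 ± 0.16 (edgeR adjusted p = 0.41). *Lats2* (ENSMUSG00000021959, chr14:57689662-57758388, minus strand), which is also a known target of YAP, averaged 4.66 ± 1.60 in NRG1, 4.86 ± 2.69 in EREG and 2.77 ± 1.62 in EGF organoids, from 26, 30 and 16 UMIs. Its log2 fold change of 0.81 ± 0.52 in NRG1 against EGF organoids had an interval of −0.22 to 1.85 (edgeR adjusted p = 0.40, exact permutation p = 0.075). Of its 3′ windows, 30.3% also matched the overlapping gene *Gm49361*, which had 0 counts, so its count is uncertain.

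*Sav1* (ENSMUSG00000021067, chr12:69965012-69987002, minus strand), the adaptor of the MST kinases, averaged 9.38 ± 3.69 normalized counts in NRG1, 8.83 ± 3.21 in EREG and 7.96 ± 3.71 in EGF organoids (SD, n = 6). Its 3′ end overlaps *Atl1* (11 counts in all) and *Gm3086* on the other strand, and the sources used here do not say whether counting used strand. *Nf2* (ENSMUSG00000009073, chr11:4765845-4849536, minus strand) encodes Merlin, which brings LATS kinases to the membrane, and averaged 34.3 ± 9.02 in NRG1, 39.2 ± 10.1 in EREG and 39.1 ± 7.51 in EGF organoids. In experiment 2 its NRG1 libraries (40.4, 33.5 and 16.7) were below its EGF libraries (41.7, 42.1 and 45.4), with a log2 fold change of −0.52 ± 0.27 (edgeR adjusted p = 0.32). Neither gene was called in NRG1 against EGF, with 0.22 ± 0.35 for *Sav1* (adjusted p = 0.80) and −0.17 ± 0.19 for *Nf2* (0.66).

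Groups of 3 libraries often fail to overlap, so the counts of such genes were read against all genes. Between NRG1 and EGF organoids, 2 of 10 genes did not overlap in experiment 1 (background 20.8%) and 5 of 10 in experiment 2 (background 20.8%), which were *Yap1*, *Tead1* and *Tead3* on the higher side and *Vgll4* and *Nf2* on the lower. Those on the higher side did overlap in UMIs before scaling. In NRG1 against EGF libraries, *Yap1* had 72 to 85 against 72 to 77 UMIs. *Tead1* had 15 to 42 against 15 to 17, and *Tead3* 9 to 19 against 9 to 10. After scaling, the lowest NRG1 library of *Tead1* (19.34) was barely above the highest EGF library (19.29). Between NRG1 and EREG organoids, 2 of 10 did not overlap in experiment 1 (background 17.6%), 3 of 10 in experiment 2 (background 21.7%), and 0 of 10 in both with the same direction (background 3.86%). Between EREG and EGF organoids, 0 of 10 did not overlap in experiment 1 (background 8.71%), 3 of 10 in experiment 2 (background 14.5%) and 0 of 10 in both (background 0.750%).

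EREG was compared with EGF as a second ligand at the same dose. No gene of the 10 passed the test: 0 of 10 were called by edgeR, 0 of 10 had an unadjusted p under 0.05, and DESeq2 called 0 of 10, although it gave no adjusted p for 9 of them. The background was 0.00824%, or 1 gene, with 662 of 12130 genes at an unadjusted p under 0.05. The intervals were widest for the low genes. *Vgll4* gave −0.03 ± 0.09 (95% interval −0.22 to 0.15) and *Yap1* −0.04 ± 0.14 (−0.32 to 0.23), whereas *Lats2* gave 0.82 ± 0.51 (−0.20 to 1.83). NRG1 and EREG were both set against the same EGF libraries, so these values are not independent of those for NRG1.

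The response to EREG also gave no called difference between the experiments, with 0 of 10 genes by edgeR (background 0.0742%) and 0 of 10 by DESeq2, which gave an adjusted p for none of them, and 2 of 10 at an unadjusted p under 0.05. These were *Amot*, with a log2 fold change of 0.22 ± 0.16 in experiment 1, −0.50 ± 0.19 in experiment 2 and a difference of 0.72 ± 0.25 (edgeR adjusted p = 0.38), and *Vgll4*, with 0.13 ± 0.11, −0.22 ± 0.12 and a difference of 0.35 ± 0.16 (0.63). The difference of *Amot* passed without replicate 3 of EREG in experiment 2 (1.06, adjusted p = 0.0141), the library in which *Amot* was highest among the EREG libraries of that experiment, as did its fall in experiment 2 (−0.85, adjusted p = 0.00827).

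The level of the genes under EGF was also compared between the experiments. In EGF organoids, *Tead1* and *Amot* were higher in experiment 1 than in experiment 2, by 0.74 ± 0.31 (edgeR adjusted p = 0.0608) and 0.39 ± 0.17 (0.0862) on the log2 scale. These 2 of 10 genes stood against a background of 33.6% of all genes. DESeq2 called 0 of 10, and at least 1 of the 2 calls was lost without any 1 of the EGF libraries other than replicate 3 of experiment 1. *Tead1* averaged 29.5 ± 6.42 normalized counts in experiment 1 and 17.7 ± 1.45 in experiment 2, and *Amot* 109.8 ± 13.2 and 83.7 ± 13.6 (SD, n = 3). In the same libraries 5 of 5 stem cell markers were higher in experiment 1 and 4 of 5 goblet cell markers lower. The goblet marker *Muc2* was higher (0.52 ± 0.23, edgeR adjusted p = 0.079). Paneth and enterocyte markers were called in both directions, and most general epithelial and enteroendocrine markers were lower. The part of these markers in the difference was not tested. Of 57 other pathway genes tested, 8 were higher and 11 lower in experiment 1. Of all 12130 genes tested, 33.6% were called, 1983 higher and 2087 lower, so that these pathway genes do not stand out by their count. Among the 8 higher were *Tead2* (1.74 ± 0.38, edgeR adjusted p = 0.000165), a further TEAD factor, and the kinase gene *Stk4* (0.64 ± 0.20, adjusted p = 0.00825).

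The other genes of the pathway were followed in 6 lists by role. Outside the 10 genes, 64 were listed and 57 tested, of which 2 rose and 2 fell in NRG1 against EGF organoids, against a background of 11.5% of all genes, and with a median log2 fold change of 0.07 against −0.01 for all genes. *Csnk1e*, a casein kinase gene whose product takes part in YAP turnover, averaged 73.2 ± 21.7 normalized counts in NRG1, 63.9 ± 15.6 in EREG and 50.3 ± 10.9 in EGF organoids and rose by 0.53 ± 0.15 against EGF (edgeR adjusted p = 0.0176). The other riser was *Ywhae* (0.21 ± 0.07, adjusted p = 0.0659), a 14-3-3 protein gene. The polarity gene *Patj* fell to 51.7 ± 13.6 in NRG1, against 78.3 ± 16.3 in EREG and 72.4 ± 16.02 in EGF organoids (−0.50 ± 0.16 against EGF, adjusted p = 0.0372), and *Wtip*, which encodes a LIM protein of the Ajuba family, fell by 0.72 (SE 0.27, adjusted p = 0.0945). The call of *Patj* was lost without replicate 2 of NRG1 or EGF in experiment 1 or replicate 1 of EGF in experiment 2 (adjusted p 0.11 to 0.15), those of *Wtip* and *Ywhae* without any of several libraries (adjusted p up to 0.24 and 0.16), and that of *Csnk1e* was kept without any 1 library. Within the experiments, *Csnk1e* was called in experiment 2 (0.64 ± 0.20, adjusted p = 0.0453) and not in experiment 1 (0.40 ± 0.21, 0.30), and its call was lost in either sequencing pool alone (0.53, adjusted p = 0.11 in pool S3; 0.51, 0.52 in pool S4). *Patj* (adjusted p 0.13 in experiment 1 and 0.22 in experiment 2), *Wtip* (0.50 and 0.21) and *Ywhae* (0.102 and 0.43) were called in neither experiment, although a fit of the experiment 1 libraries alone called *Patj* (adjusted p = 0.083) and *Ywhae* (0.067).

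By list, 0 of 7 core kinases and adaptors and 0 of 16 upstream scaffolds and kinases were called in NRG1 against EGF organoids by edgeR, with 0 at an unadjusted p under 0.05 and 0 called by DESeq2 in both lists. Of 11 STRIPAK and LATS inhibitor genes 1 fell (*Wtip*), of 14 junction and polarity genes 1 fell (*Patj*), of 12 turnover and retention genes 2 rose, and of 7 coactivators and TEAD partners 1 fell (*Vgll4*). The background for all these lists was 11.5% of the genes tested, so no list stood out by its count. The other TEAD factors tested were not called, *Tead2* with −0.13 ± 0.26 (adjusted p = 0.84) and *Tead4* with 0.48 ± 0.73 (0.78). The other vestigial-like genes *Vgll1*, *Vgll2* and *Vgll3* had 1, 0 and 9 UMIs in all and were not tested. In NRG1 against EREG organoids, 1 of the 57 rose, *Csnk1d* (0.29 ± 0.10, adjusted p = 0.0637), and 1 fell, *Patj* (−0.63 ± 0.16, adjusted p = 0.00547), against a background of 11.3%. The call of *Csnk1d* was lost without any 1 of 4 libraries (adjusted p 0.10 to 0.24), and that of *Patj* in experiment 2 alone (−0.23, adjusted p = 0.56) and in pool S4 alone (−0.37, 0.64). In EREG against EGF organoids, 0 of 57 were called by edgeR, with 1 at an unadjusted p under 0.05, and 0 by DESeq2, which gave no adjusted p for 49.

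Genes of a YAP and TEAD target signature were followed as a further list. Of 22 listed, 13 were tested, and 4 rose and 0 fell in NRG1 against EGF organoids, where 735 of the 12130 genes tested rose and 656 fell, with a median log2 fold change of 0.68 against −0.01 for all genes. Above that median lay uncalled genes with few UMIs, *Lats2* (0.81, 72 UMIs in all), *Amotl2* (0.71, 87) and *Myof* (0.71, 60). *Arhgef17* (−0.62), *Rbms3* (−0.23) and *Nuak2* (−0.09) had negative values, also uncalled. *Lats2*, *Amotl2* and *Ptpn14* were also in the lists of pathway components. *F3*, the gene of tissue factor, averaged 96.2 ± 75.1 normalized counts in NRG1, 34.7 ± 27.5 in EREG and 51.1 ± 45.3 in EGF organoids and rose by 0.99 ± 0.17 (edgeR adjusted p = 1.30e-05). *Ccn1*, which encodes a secreted matricellular protein, averaged 20.9 ± 11.1 in NRG1, 6.26 ± 1.97 in EREG and 9.89 ± 3.25 in EGF organoids and rose by 0.96 ± 0.29 (adjusted p = 0.0235). These large SDs over 6 libraries include the difference between experiments, since *F3* was lower in experiment 1 than in experiment 2 in EGF organoids, with a log2 fold change of −3.20 ± 0.27.

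*Gadd45a*, a gene of the DNA damage response, averaged 90.7 ± 41.1 in NRG1, 57.9 ± 31.3 in EREG and 52.5 ± 25.8 in EGF organoids and rose by 0.80 ± 0.14 (edgeR adjusted p = 4.44e-05). *Dock5*, which encodes an exchange factor for Rac, averaged 27.3 ± 12.3, 17.6 ± 6.36 and 16.8 ± 4.42 in NRG1, EREG and EGF organoids and rose by 0.68 ± 0.23 (adjusted p = 0.0527). The same 4 of 13 genes rose in NRG1 against EREG organoids, where 797 of the 12130 genes tested rose. Both comparisons use the same NRG1 libraries, so their results are not independent. Against EREG, *F3* rose by 1.47 ± 0.18 (adjusted p = 1.83e-09), *Ccn1* by 1.63 ± 0.31 (0.000132), *Gadd45a* by 0.66 ± 0.14 (0.000702) and *Dock5* by 0.63 ± 0.23 (0.0772). However, *Dock5* lost that call without any 1 of 7 libraries (adjusted p 0.12 to 0.28) and *Ccn1* in experiment 1 alone (0.94, adjusted p = 0.30). In EREG against EGF organoids 0 of 13 were called by edgeR, with 1 at an unadjusted p under 0.05, and 0 by DESeq2, which gave an adjusted p for none of them. Against EGF, the call of *Ccn1* was lost without replicate 1 of EGF in experiment 2 (0.79, adjusted p = 0.12) and in experiment 1 alone (0.32, adjusted p = 0.77), and that of *Dock5* without replicate 2 of NRG1 in experiment 1, replicate 1 of NRG1 in experiment 2 or replicate 1 of EGF in experiment 2 (adjusted p 0.15 to 0.17). *Dock5* was called in neither experiment, with 0.58 ± 0.33 in experiment 1 (adjusted p = 0.37) and 0.78 ± 0.32 in experiment 2 (0.17), and neither *Ccn1* nor *Dock5* was called against EGF in a single sequencing pool (adjusted p 0.20 to 0.39). *Gadd45a* was not called in pool S4 alone (0.63 against EGF, adjusted p = 0.28, and 0.30 against EREG, 0.74). *F3* and *Gadd45a* rose within each experiment, by 1.45 ± 0.32 and 0.81 ± 0.22 in experiment 1 and by 0.83 ± 0.18 and 0.78 ± 0.18 in experiment 2. The other 9 tested genes of the list, *Lats2* among them, were not called, and the well-known targets *Ccn2*, *Ankrd1* and *Axl* had too few UMIs to be tested (10, 8 and 10 in all).

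**Figure D4:**
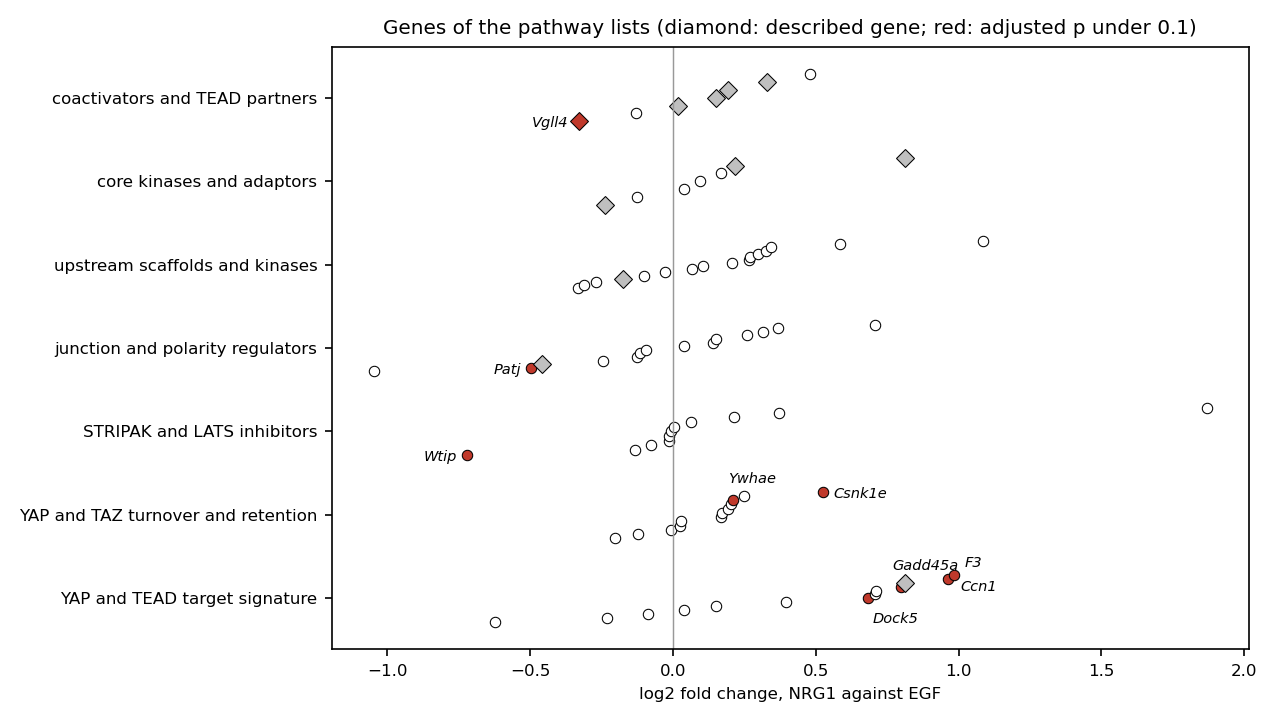
Log2 fold change in NRG1 against EGF organoids (x axis) of each tested gene of the 7 lists (rows), with diamonds for the 10 genes described here, circles for other genes, and red for an adjusted p under 0.1. The target signature, with a median of 0.68, lies to the right of the 6 lists of pathway components, whose medians lie between −0.03 and 0.17. *Lats2*, *Amotl2* and *Ptpn14* belong to the signature and to a component list.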

How the data were processed

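RNA of 18 organoid libraries was primed at the poly(A) tail with barcoded oligo-dT carrying a UMI, and read 2 covered 61 bases of the 3′ end. The authors used STAR 2.7.8a with GRCm38 for alignment and deposited a table of UMI counts per gene made with BRB-seqTools, neither normalized nor pooled over replicates; the submitters' notes also name DESeq2 and MultiQC. The sources used here do not give the annotation release. The deposited sample sheet gave ligand, experiment, replicate number and sequencing pool of each column; replicate 2 was in pool S4, and replicates 1 and 3 were in pool S3. A reporter row with 6 counts (2.05e-05% of all) was left out. Symbols and coordinates came from GENCODE M21 by gene identifier (31011 of 31053 genes). No replicate pair was alike enough to be 1 library deposited again (chi-square per degree of freedom 1.52 to 4.14 over 18 pairs). The smallest library had 69.3% of the counts of the largest.

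Counts were analysed in R 4.3.3. A gene was tested if its counts summed to 5 or more and averaged 1 or more per library after scaling. These 12130 genes were scaled by TMM and tested with edgeR 4.0.16 (quasi-likelihood, robust; limma 3.58.1), with terms for ligand, experiment and replicate number, following the study's design, and 12 residual degrees of freedom; differences between experiments were contrasts of a fit with ligand within experiment. P-values were adjusted by Benjamini-Hochberg over all genes, with calls under 0.1. An SE was obtained from the size of the log2 fold change over the root of its F statistic, and intervals are 95%. Normalized counts are TMM-scaled. Exact permutations used log2(normalized count + 1). Alternatives were DESeq2 1.42.0, other scaling and filters, other replicate terms, subsets of libraries, summed counts and leaving out each library. The code was tested on simulated counts.

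The 10 genes and the lists were chosen with earlier results of these data known. Named were all 10 genes, the called members of each pathway list (up to 5 by adjusted p), and the 5 genes with the highest Pearson correlation to *Vgll4* (log2 scaled counts with experiment and replicate removed). The 61-base windows of each gene's 3′ ends were searched in other genes' transcripts; none but *Lats2* shared any.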

Additional observations from a re-analysis of the deposited data

Results flagged for a closer look

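In the 30 groups of 6 libraries (10 genes by 3 ligands), 2 had a library far from the others (gap to the nearest over the range of the group above 0.625); chance alone marks about 1 in 20 groups. *Nf2* had 16.68 normalized counts in NRG1 experiment 2 replicate 3, where the next NRG1 library had 33.51 and the highest 40.43 (ratio 0.709). *Tead3* had 24.49 in NRG1 experiment 2 replicate 2, where the next had 11.92 and the lowest 7.844 (ratio 0.755). These libraries hold 14 and 19 UMIs of the genes.

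For 3 results the experiments differed by the test of the difference itself (edgeR, experiment 1 minus experiment 2). For NRG1 against EGF organoids, *Tead1* differed by −1.603 on the log2 scale (adjusted p = 0.0399). Its change was −0.59 in experiment 1 and 1.01 in experiment 2. For NRG1 against EREG organoids, *Amot* differed by −1.145 (adjusted p = 0.00580) and *Vgll4* by −0.5213 (adjusted p = 0.0922). Each experiment is 1 mouse, so mouse, culture and day cannot be told apart.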

How the results depend on the processing

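Of 130 results of the 10 genes (fold changes in each comparison), 108 kept their side of the threshold under all alternatives tried and 22 did not, and 0 reversed among called values. Most of the 130 were not called in the main fit, and staying uncalled counts here as keeping the side. A setting that gave a gene no adjusted p, as DESeq2 did for most genes in EREG against EGF, was passed over. The 108 is thus no measure of how stable the calls were. The number of genes called in NRG1 against EGF, 1, was 2 with upper-quartile factors, without a filter on low counts, with the replicate block within experiments, with only the 2 ligands compared and in experiment 1 alone, and 0 with summed counts and in pool S3 or pool S4 alone (pools were added after the values were seen). Without 1 library it was 1 to 2. In NRG1 against EREG, 1 became 2 without a filter and in experiment 1 or experiment 2 alone, 0 with summed counts and in either pool alone, and 0 to 2 without 1 library. In EREG against EGF it was 0 throughout. The difference between experiments gave, for NRG1 against EGF, 0 instead of 1 with DESeq2, which gave no adjusted p for *Tead1*, and in pool S3, and 0 to 1 without 1 library; for EREG against EGF, 0 to 1 without 1 library; and for NRG1 against EREG, 1 instead of 2 with upper-quartile factors, without a filter and with no replicate block, 0 in pool S3, and 1 to 2 without 1 library. For EGF organoids between experiments, 2 became 0 with DESeq2 and in pool S3, 1 without a filter and with no replicate block, and 0 to 2 without 1 library. The cause of these changes was not tested beyond the fewer libraries of the subsets.

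Libraries of the same replicate number were weakly alike within an experiment. The correlation of deviations from group means was 0.02 to 0.227 (median 0.166) for the 18 pairs of the same number. For the 36 pairs of different numbers it was −0.172 to 0.071 (median −0.083), and some same-number pairs were under 0.1. Across experiments the median was 0.036 for the 27 pairs of the same number and −0.071 for the 54 of different numbers. The replicate term shared by both experiments thus has little behind it. Whether the numbers stand for a pairing or for the sequencing pool was not tested. With no replicate block, *Vgll4* in NRG1 against EGF had a log2 fold change of −0.32 (adjusted p = 0.029), against −0.33 (0.0170) with it, and the counts of calls that moved are given above.

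Over all genes, the calls in EREG against EGF were 1, against 11 with DESeq2, 26 without a filter, 16 with the block within experiments, 25 with only those ligands, 339 in experiment 2 alone, 2 in experiment 1 alone, 0 with summed counts or in 1 pool, and 0 to 43 without 1 library. Those in NRG1 against EGF were 1391, against 738 with summed counts, 590 in pool S3 and 275 in pool S4, and those in NRG1 against EREG 1375, against 737, 526 and 330. Depth limits the low genes: *Lats2*, with 72 UMIs in all, had an interval of −0.22 to 1.85.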
